A study of Mus musculus with 9 samples.

Results

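The genes described here are imprinted genes, which in mouse are expressed mainly or only from the copy inherited from 1 parent in at least some tissues. They were taken by symbol from a list of 36, and all 36 were among the 55418 symbols of the count table. The data are messenger RNA counts from 9 libraries of 66cl4, a cell line labelled as murine triple negative breast cancer and grown in high-glucose DMEM with calf serum. There were 3 libraries, titled as biological replicates, in each of 3 groups. The groups carried a scrambled short hairpin RNA (SCR), the hairpin shEya3_KD1 or the hairpin shEya3_KD2, and every group, controls included, was kept under puromycin after transduction. Whether the transduced cells were pools or clones is not given in the sources used here, and nothing says that the libraries came from separate cultures. The p-values therefore measure only how these libraries varied, which may be technical.

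Imprinting is set in the germ line by DNA methylation of control regions, and the mark is then kept through cell division by the maintenance methyltransferase and its partners. Many imprinted genes lie in clusters, in which a long non-coding RNA from 1 parental copy can silence its neighbours on the same chromosome. Several encode regulators of fetal and placental growth, and many are turned down after birth. Counts per gene do not separate the parental copies, so the values below are sums over both.

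The RNA targeted by the hairpins checked the labels. Eya3 stood at 69.4, 80.0 and 72.8 CPM (counts of a gene per 1000000 counts of its library) in the 3 SCR libraries. It was at 24.7, 21.6 and 23.1 CPM with shEya3_KD1 and at 37.6, 38.8 and 34.1 CPM with shEya3_KD2, so neither hairpin group overlapped SCR. The 6 epithelial markers, led by the keratin Krt8 at 689 ± 23.3 CPM in SCR (mean ± SD, n = 3), summed to 666 to 710 CPM in SCR, 1233 to 1376 CPM for shEya3_KD1 and 764 to 846 CPM for shEya3_KD2. The keratin Krt18 was at 0.0281, 0.956 and 2.57 CPM and Krt14 at 1.34, 0.561 and 11.6 CPM in the same order. The 3 mesenchymal markers, led by the filament gene Vim at 2131 ± 19.7 CPM in SCR, summed to 2702 to 2810, 3618 to 3993 and 2921 to 3087 CPM. The epithelial marker Epcam and the progesterone receptor Pgr had no counts in any group. The oestrogen receptor Esr1 was at 7.23 ± 0.275 CPM in SCR and Erbb2 at 54.4 ± 1.81 CPM. Markers of macrophages and lymphocytes were all below 1 CPM as group means, and C1qa had no counts. The 4 macrophage markers summed to 0.605 to 1.00 CPM in SCR, 0.232 to 0.372 CPM for shEya3_KD1 and 0.0720 to 0.152 CPM for shEya3_KD2, and the 3 lymphocyte markers to at most 0.383 CPM. Of 3 endothelial markers only Cdh5 reached 1 CPM, and the summed level of the list was 3.55 to 4.13 CPM in SCR libraries, against 0.282 to 0.407 CPM for shEya3_KD1 and 1.78 to 2.43 CPM for shEya3_KD2. The 4 fibroblast markers summed to 28.8 to 35.6, 42.7 to 44.9 and 28.5 to 39.9 CPM. The part of these shifts in the results below was not tested. In bulk RNA, fewer cells of a type and less RNA per cell cannot be told apart.

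Most of the imprinted genes were silent in these cells, a share near that among all symbols of the count table. That background was not matched to the 36 genes by gene type. Of its 55418 symbols 30670 had a count in any library, against 27 of the 36 genes. A gene was called on in a group when each of its 3 libraries had at least 1 CPM, silent when each had under 0.1 CPM, and low otherwise. In SCR 7 of the 36 were on, 6 low and 23 silent, against 22.2% on, 11.2% low and 66.6% silent among all symbols. With shEya3_KD1 8 were on, 2 low and 26 silent, against 21.8% on, 11.3% low and 66.9% silent among all symbols. With shEya3_KD2 the numbers were 8, 2 and 26, against 21.7%, 10.9% and 67.4%. In all, 23 genes were silent in all 3 groups and 7 were on in all 3, and 0 were switched in the sense of on in 1 group and silent in another. Of the 12752 symbols that were on in at least 1 group, 1.04% were silent in another. The genes whose state did change were Igf2r, Snrpn, Airn, Ppp1r9a and Ascl2. Igf2r went from low in SCR to on with both hairpins, but only SCR replicate 1 (0.726 CPM) was under 1 CPM. Snrpn, Airn and Ppp1r9a were low in SCR and silent with at least 1 hairpin. For Ppp1r9a only SCR replicate 3 (0.196 CPM) was above 0.1 CPM. Ascl2 had at most 5 counts in any library and crossed the limit of 0.1 CPM in 1 SCR library. Leaving out each library in turn gave 7 to 8 on and 23 to 25 silent in SCR.

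**Figure D1:**
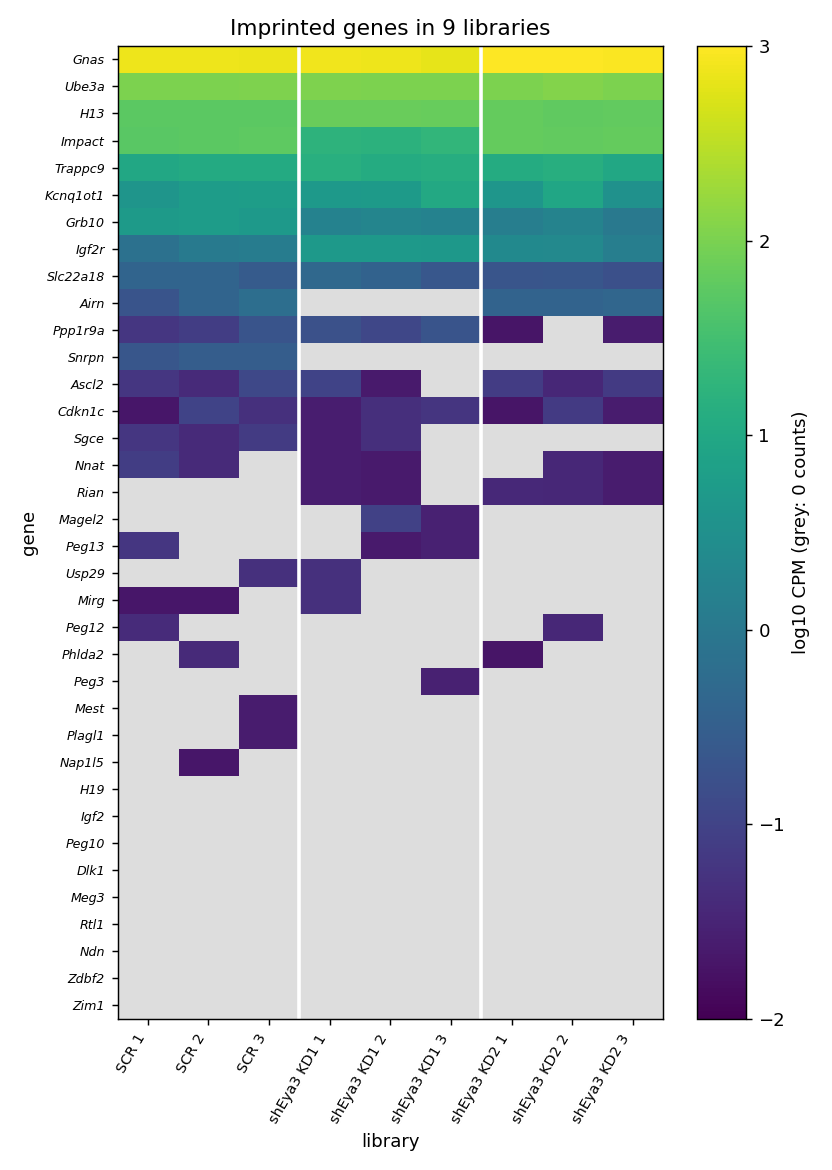
Level of each of the 36 imprinted genes (rows, ordered by mean) in each of the 9 libraries (columns), as log10 CPM, with grey for 0 counts. The upper 8 rows hold the genes that were on in at least 1 group, and the grey cells of Airn and Snrpn lie in whole groups.

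The promoters of 4 of the genes whose RNA fell to 0 counts in a group or changed several-fold are shown first. Impact also changed several-fold, but the source of the promoters held no window for it. The windows run from 250 bases before to 50 bases after a start site and come from RefSeq (GRCm38.p6), which held a window for 28 of the 36 genes. Capitals mark the CG dinucleotides, the sites of DNA methylation. Airn starts within an intron of Igf2r, 28353 bases downstream of the start of Igf2r and on the opposite strand. For Snrpn, which has several starts in RefSeq, the start nearest to Snurf was taken, and for Grb10, which has a pair of starts, the upstream one. The windows are Airn on the plus strand at chr17:12741061-12741360, Igf2r on the minus strand at chr17:12769657-12769956, Snrpn on the minus strand at chr7:60005150-60005449 and Grb10 on the minus strand at chr11:12037371-12037670.
Airn: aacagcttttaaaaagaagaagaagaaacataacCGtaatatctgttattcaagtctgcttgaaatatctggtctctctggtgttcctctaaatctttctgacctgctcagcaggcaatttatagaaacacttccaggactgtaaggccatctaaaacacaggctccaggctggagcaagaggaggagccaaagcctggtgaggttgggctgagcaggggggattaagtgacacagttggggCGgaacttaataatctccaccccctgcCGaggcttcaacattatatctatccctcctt
Igf2r: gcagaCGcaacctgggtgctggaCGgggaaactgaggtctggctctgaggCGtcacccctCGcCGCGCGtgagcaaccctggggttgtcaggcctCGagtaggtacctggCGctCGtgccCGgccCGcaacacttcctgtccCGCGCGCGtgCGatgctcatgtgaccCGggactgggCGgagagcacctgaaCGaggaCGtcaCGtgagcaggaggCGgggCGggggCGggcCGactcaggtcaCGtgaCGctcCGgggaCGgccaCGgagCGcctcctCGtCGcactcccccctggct
Snrpn: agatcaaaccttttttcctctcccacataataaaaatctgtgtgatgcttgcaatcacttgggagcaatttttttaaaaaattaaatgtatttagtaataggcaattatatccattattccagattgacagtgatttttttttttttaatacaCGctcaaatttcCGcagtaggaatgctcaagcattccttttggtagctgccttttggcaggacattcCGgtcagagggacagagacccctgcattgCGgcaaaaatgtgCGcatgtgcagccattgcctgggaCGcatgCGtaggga
Grb10: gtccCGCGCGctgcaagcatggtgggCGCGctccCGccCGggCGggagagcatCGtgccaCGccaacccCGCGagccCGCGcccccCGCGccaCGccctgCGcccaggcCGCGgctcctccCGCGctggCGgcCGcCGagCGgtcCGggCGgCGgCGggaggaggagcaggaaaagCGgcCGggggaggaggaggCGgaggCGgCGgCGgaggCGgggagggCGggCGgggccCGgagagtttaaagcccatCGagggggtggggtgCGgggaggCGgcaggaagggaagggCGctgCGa

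The 4 windows differ in CG content. Grb10 held 45 CG dinucleotides and Igf2r 34, more than 98.1% and 92.3% of all 32851 promoter windows, whereas Snrpn held 7 and Airn 3. The median was 14 over the 43 windows of imprinted genes and 7 over all windows. The letters TGCCGC, which the imprint-keeping zinc finger protein Zfp57 binds when methylated, were searched on both strands. They were found once in the Snrpn window and once in the Grb10 window, and not in those of Airn or Igf2r. Among all windows 11.6% held them, and among windows of imprinted genes 11 of 43 did (25.6%), in 10 of 28 genes. These matches describe the letters only.

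The sharpest pattern was at the Igf2r and Airn locus. Airn is a long non-coding RNA of the paternal copy that is known to silence Igf2r on the same chromosome, and Igf2r is a receptor that carries Igf2 and mannose 6-phosphate proteins to the lysosome. Airn (mm10, chromosome 17, 12741311 to 12860136) had 10, 21 and 26 counts in the SCR libraries (0.202, 0.418 and 0.635 CPM) and 21, 11 and 19 counts with shEya3_KD2 (0.399, 0.396 and 0.448 CPM). It had 0 counts in each of the 3 shEya3_KD1 libraries. With a floor of 3 counts over the group, Airn was at least 15.8-fold lower with shEya3_KD1 than in SCR and at least 16.2-fold lower than with shEya3_KD2. The adjusted p was 8.57e-05 against SCR and 9.78e-05 between the hairpins by the quasi-likelihood test of edgeR, adjusted with the Benjamini-Hochberg method over the 15914 genes tested. Airn was lower in 3 of 3 shEya3_KD1 libraries. It passed the filter on low counts through the groups where it is high, and with SCR and shEya3_KD1 alone it was not tested (9 of the 36 genes were, with 2 lower), so the counts carry the comparison. Between shEya3_KD2 and SCR the libraries overlapped (51 against 57 counts, ratio 1.03 with a 95% counting interval of 0.689 to 1.52).

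Igf2r (mm10, chromosome 17, 12682406 to 12769664) went the other way in the same libraries. It stood at 0.726, 1.13 and 1.25 CPM in SCR, at 5.01, 4.97 and 4.59 CPM with shEya3_KD1 and at 2.33, 2.23 and 1.37 CPM with shEya3_KD2. The 3 groups did not overlap, with SCR lowest and shEya3_KD1 highest. The log2 fold change was 2.26 ± 0.21 (SE, adjusted p = 4.38e-07 by edgeR) with shEya3_KD1 and 0.99 ± 0.23 (adjusted p = 0.00295) with shEya3_KD2. Igf2r was lower with shEya3_KD2 than with shEya3_KD1 (log2 fold change -1.27 ± 0.20, adjusted p = 8.94e-05). The group without Airn counts had the highest Igf2r, while shEya3_KD2 had more Igf2r than SCR at an Airn level that overlapped it. Whether the levels of Airn and Igf2r are linked in these cells was not tested. Tested against a minimum fold of 1.5, the rise with shEya3_KD2 no longer passed (adjusted p = 0.133 in edgeR's glmTreat, against at most 0.0272 under the other alternatives). No exonic base of either gene is shared with another gene in the annotation, but introns overlap, and the strand setting of the counting is not given in the sources used here.

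Of the other coding genes within 250 kb of this pair, 7 of 15 were tested. With shEya3_KD1 4 rose and 0 fell, where 50.3% of all genes tested were called, 24.1% up and 26.2% down. Each rose by less than Igf2r. Wtap, a subunit of the RNA methylation complex, rose by 0.44 ± 0.07 on the log2 scale and Acat2, an acetyl-CoA acetyltransferase, by 0.39 ± 0.07. Tcp1, a chaperonin subunit, rose by 0.30 ± 0.08 and the mitochondrial ribosomal gene Mrpl18 by 0.19 ± 0.07. With shEya3_KD2 Acat2 rose and Mrpl18 and Sod2 fell, where 45.3% of all genes tested were called.

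**Figure D2:**
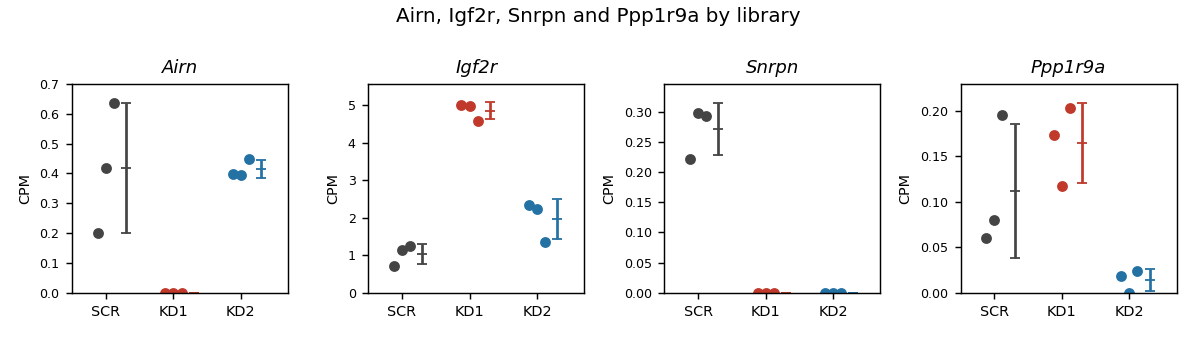
CPM (y axis, from 0) of Airn, Igf2r, Snrpn and Ppp1r9a in SCR, shEya3_KD1 (KD1) and shEya3_KD2 (KD2), with 1 point per library and the mean ± SD of 3 libraries beside the points. Airn lies at 0 in shEya3_KD1, where Igf2r is highest, and Snrpn lies at 0 with both hairpins.

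Snrpn, which encodes a spliceosome protein of the Prader-Willi locus and is expressed from the paternal copy, had 11, 15 and 12 counts in the SCR libraries (0.222, 0.298 and 0.293 CPM). It had 0 counts in all 6 hairpin libraries. It was at least 10.6-fold lower with shEya3_KD1 and at least 11.1-fold lower with shEya3_KD2 by the floor of 3 counts over a group. The gene was too low for the main test. Without a filter on low counts it passed, with adjusted p of 1.60e-07 and 2.03e-07 by edgeR. Levels were lower in 3 of 3 libraries of either hairpin. For Airn with shEya3_KD1 the same unfiltered edgeR fit gave an adjusted p of 3.89e-12, against 8.57e-05 in the main fit. The p-values of the unfiltered fit therefore cannot be set beside those of the main fit. Snrpn (mm10, chromosome 7, 59982495 to 60140219) shares 27.3% of its exonic bases with Snurf and Gm38393 on the same strand, and reads there may not have been assigned to it. Snurf had 0 counts in every group and Gm38393 had 7, 1 and 2 counts in SCR, shEya3_KD1 and shEya3_KD2. Snhg14, the long non-coding RNA that continues downstream of Snrpn, was at 0.650 ± 0.0705 CPM in SCR and fell to 0.284 ± 0.0773 CPM in shEya3_KD1 libraries (adjusted p = 0.00255 by edgeR) and to 0.325 ± 0.0660 CPM with shEya3_KD2 (adjusted p = 0.0103). Snhg14 was singled out after its values had been seen.

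Of the 36 genes, those in the rest of the Prader-Willi and Angelman locus were silent except Ube3a. Outside the 36, Mkrn3 and Atp10a of the same locus, singled out after their values had been seen, stood at 2.86 ± 0.449 and 59.8 ± 2.54 CPM in SCR. Mkrn3 fell with shEya3_KD1 (log2 fold change -0.47 ± 0.16) and did not pass with shEya3_KD2 (-0.09 ± 0.16). Atp10a fell with shEya3_KD1 (-0.41 ± 0.10) and rose with shEya3_KD2 (0.37 ± 0.10). Ndn, a MAGE family growth regulator, had no counts in any library. Magel2, its paralog that acts in a ubiquitin ligase complex, had 4 counts in shEya3_KD1 replicate 2 and 1 in replicate 3 and none elsewhere. Peg12, which encodes a Frat family protein of Wnt signalling, had 3 counts in all. Ube3a, a ubiquitin ligase that is imprinted in neurons but expressed from both copies in most other cells, was at 103, 102 and 108 CPM in SCR, 106, 105 and 104 CPM with shEya3_KD1 and 105, 116 and 103 CPM with shEya3_KD2. These groups overlapped, with log2 fold changes of 0.03 ± 0.07 and 0.10 ± 0.07 that did not pass the test. In the annotation 27.3% of Ube3a's exonic bases are shared with genes on the opposite strand, Snhg14 among them.

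Grb10, an adaptor that dampens insulin and IGF receptor signalling, fell with both hairpins. Grb10 (mm10, chromosome 11, 11930508 to 12038683) stood at 5.30, 5.79 and 4.91 CPM in SCR, at 1.66, 1.92 and 1.66 CPM with shEya3_KD1 and at 1.40, 1.73 and 1.06 CPM with shEya3_KD2. Every hairpin library lay below every SCR library, and the hairpin groups overlapped each other. The log2 fold changes were -1.59 ± 0.15 and -1.91 ± 0.16, with adjusted p of 5.89e-07 and 2.85e-07 by edgeR, and the difference between hairpins of -0.33 ± 0.18 did not pass (adjusted p = 0.156). These 2 comparisons share the SCR libraries. Of its coding neighbours within 250 kb, 2 of 4 were tested. Ikzf1, a lymphoid transcription factor, was at 0.357 ± 0.0649 CPM in SCR, 0.0911 ± 0.0438 with shEya3_KD1 and 0.141 ± 0.0850 with shEya3_KD2. Its log2 fold changes were -1.87 ± 0.46 and -1.22 ± 0.41. Ikzf1 was kept by the filter on low counts through SCR, where it is high, so these values are a description only. Fignl1, a repair ATPase, rose by 0.27 ± 0.07 with shEya3_KD1.

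Impact, which restrains the amino acid sensor kinase Gcn2 and so acts on translation, differed between the hairpins in direction. Impact (mm10, chromosome 18, 12955852 to 12992950) was at 53.2, 55.7 and 57.5 CPM in SCR, at 16.8, 16.0 and 19.95 CPM with shEya3_KD1 and at 66.2, 62.8 and 65.4 CPM with shEya3_KD2. The shEya3_KD1 libraries lay far below the rest, at a mean of 17.6 CPM against 55.5 CPM in SCR. The log2 fold change was -1.64 ± 0.08 with shEya3_KD1 (adjusted p = 2.26e-10 by edgeR) and 0.27 ± 0.08 with shEya3_KD2 (adjusted p = 0.00850). The difference between the hairpins was 1.91 ± 0.08 (adjusted p = 6.54e-11). Its neighbour Ttc39c, a tetratricopeptide repeat gene, went from 27.4 ± 2.18 CPM in SCR to 5.82 ± 0.518 CPM with shEya3_KD1 (log2 fold change -2.22 ± 0.09) and stood at 28.8 ± 1.41 CPM with shEya3_KD2, where it did not pass the test (0.12 ± 0.08). Osbpl1a, an oxysterol-binding protein gene and the only other tested coding gene within 250 kb, rose with both hairpins (log2 fold changes 0.34 and 0.36).

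Gnas, which encodes the stimulatory G protein alpha subunit and is imprinted in some tissues only, was the most abundant of the 36 genes. It stood at 763, 755 and 725 CPM in SCR, 771, 755 and 665 CPM with shEya3_KD1 and 964, 969 and 917 CPM with shEya3_KD2. Only the shEya3_KD2 libraries stood apart, with a log2 fold change of 0.39 ± 0.07 (adjusted p = 5.14e-04 by edgeR) against -0.01 ± 0.07 with shEya3_KD1. On the opposite strand Nespas, the antisense RNA of the locus, had no counts. H13, the signal peptide peptidase, rose with both hairpins, from 55.3, 55.6 and 54.9 CPM to 73.3, 71.7 and 68.1 CPM and to 64.8, 59.5 and 61.6 CPM. Its log2 fold changes were 0.38 ± 0.06 and 0.21 ± 0.06, and the second was lost without SCR replicate 3 (adjusted p = 0.0549) or shEya3_KD2 replicate 1 (adjusted p = 0.0813). H13 was also lower with shEya3_KD2 than with shEya3_KD1 (log2 fold change -0.17 ± 0.06, adjusted p = 0.0378), a call lost without any 1 of 7 libraries (adjusted p 0.0524 to 0.113). Mcts2, a paternally expressed retrogene inside H13 that was singled out after its values had been seen, was at 10.998 ± 0.169, 9.67 ± 0.736 and 9.50 ± 1.71 CPM and passed the test with neither hairpin.

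Trappc9, a subunit of a vesicle tethering complex that is imprinted in brain, was at 9.92, 11.2 and 11.4 CPM in SCR, 14.3, 12.1 and 12.95 CPM with shEya3_KD1 and 11.96, 13.5 and 10.1 CPM with shEya3_KD2. Its log2 fold change of 0.30 ± 0.11 with shEya3_KD1 passed narrowly (adjusted p = 0.0374 by edgeR). The call was lost without any 1 of the SCR libraries, of shEya3_KD1 replicates 1 and 3 or of shEya3_KD2 replicate 1 (adjusted p 0.0608 to 0.145). Peg13, the paternal non-coding RNA within Trappc9, had 5 counts in all.

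Kcnq1ot1, the paternal long non-coding RNA that silences genes of the Kcnq1 cluster on its own chromosome, was on in every library but varied between replicates. It stood at 4.03, 5.79 and 5.96 CPM in SCR, 5.08, 5.37 and 10.6 CPM with shEya3_KD1 and 4.31, 9.26 and 3.42 CPM with shEya3_KD2. The groups overlapped and neither hairpin passed the test (log2 fold changes 0.42 ± 0.42 and 0.10 ± 0.43). The other genes of its cluster among the 36 were low or silent. Further genes of the cluster outside the 36, singled out after their values had been seen, were well expressed, such as Nap1l4, a nucleosome assembly protein gene, at 126 ± 5.90 CPM and the tetraspanin gene Cd81 at 31.9 ± 0.865 CPM in SCR. With shEya3_KD1 Nap1l4 rose (log2 fold change 0.18 ± 0.06) and Cd81 fell (-0.42 ± 0.08), and neither passed with shEya3_KD2. Cdkn1c, the cell cycle inhibitor p57, had 8, 5 and 4 counts over SCR, shEya3_KD1 and shEya3_KD2, and Phlda2, a limiter of placental growth, had 2, 0 and 1. Slc22a18, a transporter-like gene, was at 0.363 ± 0.0821, 0.368 ± 0.132 and 0.197 ± 0.0277 CPM, and its shEya3_KD2 libraries lay below all SCR libraries. The log2 fold change of -0.86 ± 0.37 did not pass (adjusted p = 0.0700 by edgeR). Ascl2, a basic helix-loop-helix factor of placenta, had 10, 5 and 8 counts.

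**Figure D3:**
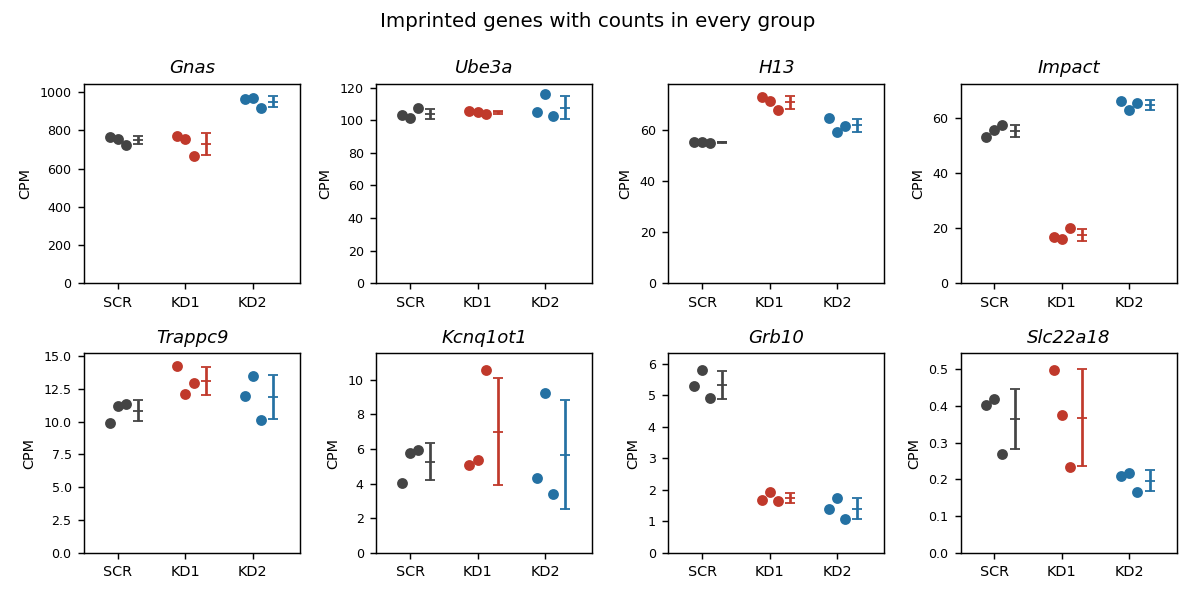
CPM (y axes, each from 0) of 8 imprinted genes with counts in every group, with 1 point per library of SCR, shEya3_KD1 (KD1) and shEya3_KD2 (KD2) and the mean ± SD of 3 libraries beside the points. Impact is lowest in shEya3_KD1, Grb10 is lower with both hairpins, and Kcnq1ot1 has 1 high library in each hairpin group.

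Of the 36 genes 9 had no counts in any library. H19, the growth-limiting non-coding RNA, and Igf2, the fetal growth factor next to it, were among them, as were Peg10 and Rtl1, genes derived from retrotransposons and needed in placenta, Dlk1, a Notch-like ligand, Meg3, a maternal non-coding RNA, Ndn, Zdbf2 and the zinc finger gene Zim1. A count of 0 allows up to 3 counts over a group, which is 0.0213 CPM in SCR, 0.0256 CPM with shEya3_KD1 and 0.0244 CPM with shEya3_KD2, for counting error only. Igf2 is the least certain of them, since 62.8% of its exonic bases are shared with Gm49394 on the same strand, which also had no counts. In the Dlk1 and Meg3 cluster on chromosome 12 Rian, a host of small nucleolar RNAs, had 6 counts and Mirg, a host of microRNAs, had 4, over all 9 libraries. In the Peg3 cluster Peg3, a zinc finger regulator of apoptosis, had 1 count and the deubiquitinase gene Usp29 had 4. Mest, of the hydrolase fold, Plagl1, a zinc finger factor that regulates other imprinted genes, and Nap1l5 had 1 count each, all in SCR, and the brain-enriched proteolipid gene Nnat had 10.

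In the Peg10 cluster, Sgce, which encodes epsilon-sarcoglycan and starts next to Peg10, had 8 counts in SCR, 3 with shEya3_KD1 and 0 with shEya3_KD2. Ppp1r9a, an actin-binding scaffold of the same cluster, had 3, 4 and 8 counts in the SCR libraries, 7, 5 and 7 with shEya3_KD1 and 1, 0 and 1 with shEya3_KD2. The 2 counts of shEya3_KD2 against 15 in SCR gave a ratio of 0.153 with a 95% counting interval of 0.0170 to 0.657. Both genes were too low for the main test. Without a filter on low counts, Sgce and Ppp1r9a passed narrowly in shEya3_KD2 against SCR (adjusted p of 0.0444 and 0.0395 by edgeR). These come from the same unfiltered fit as the p-values of Snrpn and cannot be set beside those of the main fit. Casd1, a sialic acid acetyltransferase gene beside Sgce, stood at 20.9 ± 1.14, 24.7 ± 0.194 and 17.1 ± 0.280 CPM and was singled out after its values had been seen. It rose with shEya3_KD1 (log2 fold change 0.26 ± 0.07) and fell with shEya3_KD2 (-0.24 ± 0.07).

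Arranged by the parental copy known to be expressed, 20 of the genes are paternal and 16 maternal. Of the paternal genes 2 were on in SCR (Impact and Kcnq1ot1), 2 low and 16 silent. Among the maternal genes 5 were on, 4 low and 7 silent, and with shEya3_KD1 6 were on and 8 silent. Several of the maternal genes that were on, namely Gnas, Ube3a, Trappc9 and Grb10, are known to be imprinted in some tissues or from some starts only. By position, 15 of the 36 lie on chromosome 7, 5 on chromosome 6 and 5 on chromosome 12, and all 5 of chromosome 12 were silent in every group.

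Levels between genes were compared per kilobase of exon. In SCR Gnas stood at 66.9 ± 1.78 CPM per kb, Impact at 10.8 ± 0.424, H13 at 6.22 ± 0.0374, Ube3a at 5.05 ± 0.151, Trappc9 at 1.37 ± 0.1004 and Grb10 at 0.587 ± 0.0484. These 6 did not overlap within 1 SD of each other. Slc22a18 followed at 0.214 ± 0.0483 CPM per kb, and Snrpn (0.126 ± 0.0199), Airn (0.116 ± 0.0603) and Igf2r (0.111 ± 0.0294) did not differ beyond their spread. With shEya3_KD1 Igf2r was at 0.522 CPM per kb, above Grb10 at 0.192, whereas in SCR it lay below. Kcnq1ot1, counted over its whole length of 93092 bases, had 0.0565 ± 0.0115 CPM per kb in SCR.

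Only 10 of the 36 genes were high enough to test. Of these 3 rose and 3 fell with shEya3_KD1, where 50.3% of all genes tested were called, 24.1% up and 26.2% down. With shEya3_KD2 4 rose and 1 fell, where 45.3% were called, 23% up and 22.3% down. Between the hairpins 3 were higher and 2 lower with shEya3_KD2, where 49.6% were called, 27% up and 22.5% down. Of the same 10 genes 6 had libraries that did not overlap between the groups in each comparison, against 59.2%, 55% and 54.8% of all genes tested. The shares of the imprinted genes, 60%, 50% and 50%, were near these backgrounds. Airn and Slc22a18 were kept by the filter through the groups in which they were high, so the counts are given as a description only. The median log2 fold change of the 10 genes was 0.04, 0.14 and -0.15 in the 3 comparisons, against 0.01, -0.0044 and 0.0030 over all genes tested.

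**Figure D4:**
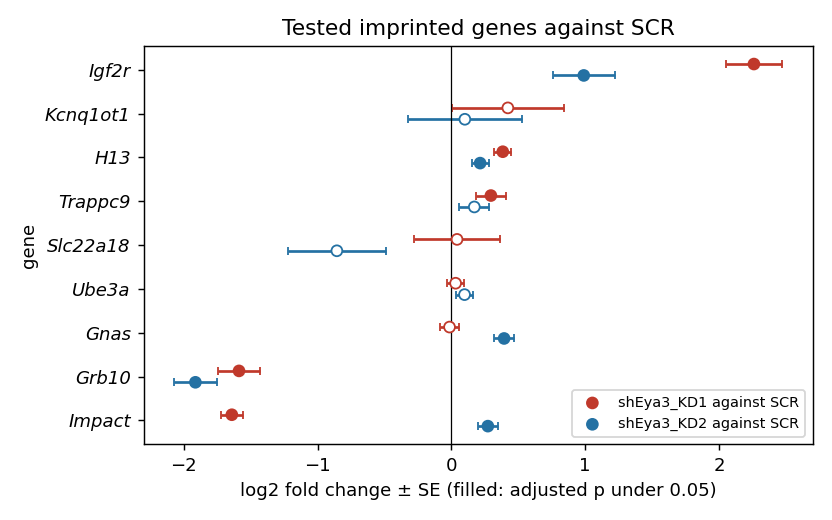
Log2 fold change ± SE (x axis) of 9 tested imprinted genes against SCR with shEya3_KD1 (red) and shEya3_KD2 (blue), filled where the adjusted p was under 0.05. Airn is left out because it had no counts with shEya3_KD1. Igf2r lies to the right and Grb10 to the left with both hairpins, and Impact lies on opposite sides.

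The enzymes and proteins that write, keep or remove imprints were mostly expressed. Of a list of 34 genes of DNA methylation, imprint maintenance and chromatin repression 28 were tested, and the hairpin shEya3_KD1 had 8 of them higher and 4 lower past the test (42.9% called, against 50.3% of all genes tested). With shEya3_KD2 14 were higher and 6 lower (71.4%, against 45.3%). The list was chosen with earlier results of these data known, and the background was not matched to it for level. These shares are therefore a description only. Their medians of 0.09 and 0.20 on the log2 scale stood beside 0.01 and -0.0044 over all genes tested. Zfp57, which protects methylated imprints, went from 15.6 ± 1.17 CPM in SCR to 27.2 ± 2.12 with shEya3_KD1 and 23.3 ± 2.00 with shEya3_KD2 (log2 fold changes 0.82 ± 0.09 and 0.62 ± 0.09). Dnmt3a, a methyltransferase that writes new marks, went from 17.5 ± 2.19 to 29.0 ± 2.03 and 31.6 ± 5.70 CPM. Tet2, which oxidises methylcytosine, had 2 counts in SCR and 2 with shEya3_KD1 and stood at 1.01 ± 0.224 CPM with shEya3_KD2 (121 counts). It passed the filter on low counts only through shEya3_KD2, where it is high, so the counts carry the comparison. Tdg, a glycosylase that removes oxidised methylcytosine, fell from 46.6 ± 3.70 to 25.3 ± 0.469 and 35.4 ± 3.30 CPM. Arid4b, a chromatin regulator of the Prader-Willi imprint, rose from 24.2 ± 1.09 to 33.7 ± 0.502 and 43.2 ± 6.28 CPM, and Atrx, a chromatin remodeller, rose with shEya3_KD2 from 103 ± 6.21 to 167 ± 31.4 CPM.

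Outside the rule for named genes, the maintenance pair was looked at after the values had been seen. Dnmt1, the maintenance methyltransferase, was at 391 ± 32.4 CPM in SCR and 430 ± 28.2 with shEya3_KD1, where it did not pass the test, and rose to 485 ± 58.5 CPM with shEya3_KD2 (log2 fold change 0.36 ± 0.10). Its partner Uhrf1 was at 243 ± 14.4, 260 ± 12.8 and 241 ± 10.6 CPM and passed with neither hairpin. Trim28, the corepressor that Zfp57 recruits, was at 474 ± 6.74, 483 ± 31.8 and 509 ± 11.05 CPM and also passed with neither. Dnmt3l, a cofactor of imprint setting in germ cells, was low and fell with both hairpins, from 0.406 ± 0.0836 to 0.0437 ± 0.0180 and 0.0666 ± 0.00837 CPM. It passed the filter on low counts only through SCR, where it is high. Dnmt3b, of the same family as Dnmt3a, was also looked at after its values had been seen. It was at 0.747 ± 0.201, 0.728 ± 0.229 and 0.220 ± 0.0682 CPM. With shEya3_KD2 it fell (log2 fold change -1.69 ± 0.35, adjusted p = 0.00124 by edgeR), and it was kept by the filter through SCR and shEya3_KD1, where it is higher.

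Further genes reported as imprinted in at least 1 mouse tissue numbered 65, of which 64 were in the table and 36 were tested. With shEya3_KD1 7 rose and 16 fell (63.9% called, against 50.3% of all genes tested), with a median of -0.13 on the log2 scale. With shEya3_KD2 9 rose and 10 fell (52.8%, against 45.3%), with a median of -0.09. This list too was chosen with earlier results known, so its shares are a description only. Xlr4b and Xlr3b, X-linked genes with near-identical copies between which reads may be split, went from 10.6 ± 0.744 to 0.0929 ± 0.0220 and 7.69 ± 1.36 CPM and from 6.81 ± 0.465 to 1.63 ± 0.396 and 3.12 ± 0.290 CPM. Gatm, which makes the precursor of creatine, had 244, 4 and 89 counts over the groups and fell with both hairpins. Tnfrsf23, a decoy receptor gene near the Kcnq1 cluster, went from 21.7 ± 1.85 to 0.655 ± 0.210 and 16.8 ± 1.87 CPM. Asb4, an adaptor of a ubiquitin ligase in the Peg10 region, went from 1.03 ± 0.0828 to 0.139 ± 0.0411 and 0.327 ± 0.105 CPM. Cntn3, a neural adhesion protein gene, went from 13.8 ± 0.731 to 4.19 ± 0.698 and 9.90 ± 0.520 CPM. All 6 fell with both hairpins, and the fall was larger with shEya3_KD1. The highest adjusted p between the hairpins was at Asb4 (0.00943 by edgeR), followed by Xlr3b (0.000137). Asb4 was kept by the filter on low counts only through SCR, where it is high, so its p-value is a description only. These 6 were picked for the size of their changes against SCR, so their shared direction does not describe the list. Other genes of the list fell with shEya3_KD1 and rose with shEya3_KD2, such as Ampd3 (log2 fold changes -1.53 and 0.46) and Sfmbt2 (-0.87 and 0.52). Both were singled out after their values had been seen.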

How the data were processed

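For 9 mRNA-seq libraries, a table of raw counts per gene symbol was deposited by the authors. The reads were processed with FastQC, MultiQC and STAR on mm10, per the submitters' processing notes. The sources used here do not give the counting tool, annotation or strand setting. Library totals ran from 27758862 to 52691960 counts, and CPM values were counts per 1000000 of that total.

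The members and gene lists were chosen with earlier results of these data known. edgeR 4.0.16 in R 4.3.3 (with limma 3.58.1) was fitted once to all 9 libraries after its default filter on low counts, which left 15914 genes, with TMM scaling and robust quasi-likelihood dispersions. The 3 contrasts were adjusted by the Benjamini-Hochberg method over all genes tested, with a threshold of 0.05. The fit was tested on simulated data. An exact permutation test of 3 libraries against 3 cannot go below p = 0.1 and was not used. Intervals (95%, exact) and the floor of 3 counts cover counting error only, since no molecular identifiers are described. Within a group, every pair of libraries differed by more than counting noise (chi-square divided by its degrees of freedom, 9.24 to 45.2), and each was kept as 1 replicate.

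All 36 genes are accounted for, and those with at least 1 CPM in a group mean are given by library. From the lists of imprint machinery and other imprinted genes, up to 6 genes were named, those with the largest absolute log2 fold change in either comparison with SCR among genes past the threshold with at least 1 CPM in a group mean and groups that did not overlap. The promoter windows shown and the 250 kb neighbour window were chosen after values had been seen. Positions and shared exonic bases came from GENCODE M21 on mm10. Alternatives were DESeq2 1.42.0, other scalings, filters, thresholds, designs and leaving out each library.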

Additional observations from a re-analysis of the deposited data

Results flagged for a closer look

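Impact differed between the hairpins under a test of the difference itself. Its log2 fold change between shEya3_KD2 and shEya3_KD1 was 1.91 ± 0.08 (adjusted p = 6.54e-11 by edgeR), with a fall against SCR with shEya3_KD1 and a rise with shEya3_KD2.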

How the results depend on the processing

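Over the tested imprinted genes and all alternatives, 490 values kept their direction and side of the threshold, 24 lost the threshold and 3 gained it. The other 9 changed sign, all of them past the threshold neither before nor after. They were Kcnq1ot1 with shEya3_KD2 against SCR under limma-voom (-0.048; -0.39 to 0.37 leaving out each library), Slc22a18 with shEya3_KD1 on counts thinned to the shallowest library (-0.083; -0.23 to 0.26), Airn with shEya3_KD2 (-0.28 to 0.46), Gnas with shEya3_KD1 (-0.059 to 0.046) and Kcnq1ot1 between the hairpins (-0.81 to 0.088). Without a filter on low counts, with 27 of the genes tested, 8 were called with shEya3_KD2 against SCR and 4 were lower. With a filter of 5 CPM in 3 libraries only 6 of the genes were tested: 3 were called and 1 was lower with shEya3_KD1, 3 were called and 0 lower with shEya3_KD2 (edgeR, 0 also at an unadjusted p under 0.05), and 3 were called and 1 was lower between the hairpins. Fitted on only the 2 groups compared, 2 were lower with shEya3_KD2. Against a minimum fold of 1.5 (edgeR's glmTreat), 1 was higher with shEya3_KD1 and 2591 of all genes were called; 1 was called and 0 higher with shEya3_KD2 (1 at an unadjusted p under 0.05) and 1456 of all genes were called; 3 were called and 1 was lower between the hairpins, with 2087 of all genes called. Leaving out each library in turn gave 5 to 7, 4 to 7 and 4 to 6 called in the 3 comparisons, with 1 to 2 lower in shEya3_KD2 against SCR and 1 to 3 lower between the hairpins. The cause of the changes was not tested beyond the number of genes each setting tests. Of the 36 genes 26 were too low for the test, 9 of them with 0 counts and 12 with 1 to 10 counts over 9 libraries.

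Replicate numbers are shared across the groups, but they were not taken as pairs, since correlations of same-numbered libraries ran from -0.11 to 0.20 and 6 of 18 best matches were the same number. With the replicate number as a block, 6, 5 and 6 of the imprinted genes were called in the 3 comparisons and 8093, 7329 and 8017 of all genes.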
